A study of Mus musculus with 5 samples.

Results

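H3K27me3 regions without H2AK119ub are stretches of the autosomes that were called for the product of Polycomb repressive complex 2 (PRC2) and share no base with any region called for the product of Polycomb repressive complex 1 (PRC1). They were chosen by called width and overlap, as the regions of the deposited H3K27me3 list on chromosomes 1 to 19 that are under 30 kb wide and have no base in common with the H2AK119ub list. There were 3708 of them among 12125 autosomal H3K27me3 regions under 30 kb and 15102 H3K27me3 regions in all. The other 8417 short autosomal regions, which share sequence with H2AK119ub, served for comparison. Chromatin came from basal cells of the epidermis of control mice at postnatal day 71. Their genotype was K14-RFP;K10-H2B-GFP, with reporters under keratin promoters of the basal and the suprabasal layer. Back skin was sorted for the Sca1+, RFP-high and GFP- fraction. Antibodies against H2AK119ub and H3K27me3 gave 2 libraries each, beside 1 input library, and the labels do not say whether the libraries of a mark came from separate mice. Each mark has 1 list of called regions with positions only, so read depth, region height and the spread between libraries are unknown, and the values below carry no test.

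PRC1 attaches ubiquitin to a lysine of histone H2A and PRC2 methylates a lysine of the tail of histone H3. Each complex has subunits that recognise the mark of the other, and at the CpG-rich promoters of silent developmental regulators both marks usually lie together. PRC2 can also bind CpG-rich sequence through its accessory subunits, and H3K27me3 can spread into sequence beside its entry sites. A region without an H2AK119ub call may still carry that mark below the threshold of the list, which is not given in the sources used here.

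Promoters under the H2AK119ub-free regions differed in CpG content. The sequences below are the 250 bases before a RefSeq start site (GRCm38.p6, the build also called mm10), written 5′ to 3′ with each CpG in capitals. The first set belongs to the widest regions over a start site. Ccr6 encodes a chemokine receptor of lymphocytes, and Them7 and 1810065E05Rik are named only.
Ccr6 (chr17:8235793-8236042, + strand): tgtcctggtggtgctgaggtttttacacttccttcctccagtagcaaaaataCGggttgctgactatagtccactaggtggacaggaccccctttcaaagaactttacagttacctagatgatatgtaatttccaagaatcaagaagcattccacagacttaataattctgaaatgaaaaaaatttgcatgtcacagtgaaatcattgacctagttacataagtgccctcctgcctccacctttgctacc
Them7 (chr2:105224092-105224341, + strand): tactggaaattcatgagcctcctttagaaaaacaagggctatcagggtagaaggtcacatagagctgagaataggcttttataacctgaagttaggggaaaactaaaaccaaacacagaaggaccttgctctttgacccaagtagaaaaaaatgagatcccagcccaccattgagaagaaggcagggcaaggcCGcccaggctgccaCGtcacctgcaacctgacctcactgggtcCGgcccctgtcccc
1810065E05Rik (chr11:58420861-58421110, + strand): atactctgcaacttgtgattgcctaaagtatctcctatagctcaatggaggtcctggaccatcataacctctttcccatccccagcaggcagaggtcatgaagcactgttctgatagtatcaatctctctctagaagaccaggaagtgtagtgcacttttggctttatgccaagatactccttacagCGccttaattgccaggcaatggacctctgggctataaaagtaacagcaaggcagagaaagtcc
The second set belongs to the regions over a start site that lie farthest from H2AK119ub. Pcdh9 and Cdh8 encode neuronal cadherin-type adhesion proteins and Slitrk1 a synaptic leucine-rich repeat protein.
Pcdh9 (chr14:93890670-93890919, - strand): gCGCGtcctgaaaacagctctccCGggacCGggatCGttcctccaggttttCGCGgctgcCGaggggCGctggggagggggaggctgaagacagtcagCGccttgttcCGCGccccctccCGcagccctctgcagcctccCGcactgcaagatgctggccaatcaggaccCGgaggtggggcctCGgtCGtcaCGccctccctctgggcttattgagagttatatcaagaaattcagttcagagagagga
Cdh8 (chr8:99416472-99416721, - strand): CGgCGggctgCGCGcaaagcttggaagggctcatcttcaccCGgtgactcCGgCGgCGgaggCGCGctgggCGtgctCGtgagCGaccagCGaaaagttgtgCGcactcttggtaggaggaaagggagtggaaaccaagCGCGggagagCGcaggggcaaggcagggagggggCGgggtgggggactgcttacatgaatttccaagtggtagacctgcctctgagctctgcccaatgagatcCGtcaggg
Slitrk1 (chr14:108914240-108914489, - strand): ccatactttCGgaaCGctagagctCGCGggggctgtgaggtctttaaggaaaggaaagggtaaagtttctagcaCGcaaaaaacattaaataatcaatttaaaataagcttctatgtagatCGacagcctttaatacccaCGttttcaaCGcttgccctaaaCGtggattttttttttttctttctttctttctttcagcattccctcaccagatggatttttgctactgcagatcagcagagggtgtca
The last sequences are for comparison, from the widest short H3K27me3 regions whose start site lies in H2AK119ub. Gata2 and Prrx1 encode transcription factors of other lineages.
Gata2 (chr6:88193641-88193890, + strand): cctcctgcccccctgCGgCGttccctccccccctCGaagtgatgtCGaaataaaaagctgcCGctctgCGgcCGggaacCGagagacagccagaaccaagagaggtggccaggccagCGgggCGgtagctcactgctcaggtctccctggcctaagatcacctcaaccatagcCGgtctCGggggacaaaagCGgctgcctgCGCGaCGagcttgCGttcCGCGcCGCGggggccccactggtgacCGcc
Prrx1 (chr1:163313651-163313900, - strand): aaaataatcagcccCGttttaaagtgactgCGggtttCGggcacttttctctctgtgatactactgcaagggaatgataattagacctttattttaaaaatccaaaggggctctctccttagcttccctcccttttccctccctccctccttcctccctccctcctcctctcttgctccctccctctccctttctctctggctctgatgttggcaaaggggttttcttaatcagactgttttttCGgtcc
The printed bases hold 1, 3 and 1 CpG at Ccr6, Them7 and 1810065E05Rik, against 18, 20 and 9 at Pcdh9, Cdh8 and Slitrk1. Gata2 has 22 and Prrx1 has 4. With the 50 bases after the start site, Them7 has 10 CpG and Slitrk1 has 9, and the ratio of observed to expected CpG, defined with the promoter results, was 0.481 at Them7 and 0.671 at Slitrk1.

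The H2AK119ub-free regions made up 30.6% of the short autosomal H3K27me3 regions (exact Clopper-Pearson 95% interval 29.8 to 31.4%, which covers counting over the list only and treats regions as independent). They held 24.7 Mb, or 16.5% of the autosomal H3K27me3 length. Their median width was 5.58 kb (quartiles 3.53 and 8.595 kb), whereas short regions with H2AK119ub had a median of 8.20 kb (quartiles 4.93 and 13.3 kb). The regions with H2AK119ub were mostly embedded in it, since 4536 of them (53.9%) lay inside H2AK119ub from end to end. The rule has 2 edges. At the width edge, the widest region that counts measured 29.9 kb, and 13 autosomal regions of 30.75 to 52.9 kb also lacked H2AK119ub but were too wide. At the overlap edge, 14 regions that count lay under 100 bp from H2AK119ub, the nearest at 2 bp, and 10 that do not count shared under 100 bp with it, the least being 19 bp.

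The median distance to the nearest H2AK119ub region was 22.8 kb (quartiles 6.78 and 68.3 kb). At the near end, 127 regions (3.43%) were under 1 kb away and 609 (16.4%) were 1 to 5 kb away. At the far end, 528 (14.2%) were 100 to 500 kb away and 156 (4.21%) were 500 kb or more away, up to 4.94 Mb. Called H2AK119ub was sparser in the surroundings than around short regions with H2AK119ub, but for most H2AK119ub-free regions it was not absent there. Within 100 kb on each side, called H2AK119ub covered a median of 12.7% of the sequence around H2AK119ub-free regions and 51.4% around short regions with H2AK119ub. No H2AK119ub at all was called in these flanks for 684 of the H2AK119ub-free regions (18.4%) and for 276 of the others (3.28%). These values follow in part from the rule and are given as a description.

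**Figure D1:**
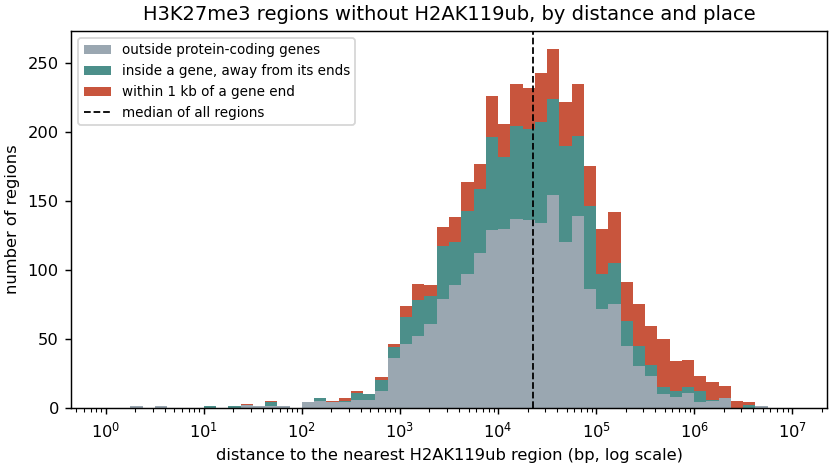
Number of H2AK119ub-free H3K27me3 regions (vertical axis) by distance in bp to the nearest H2AK119ub region (log horizontal axis), stacked by place relative to protein-coding genes, with the median of 22.8 kb as a dashed line. The part of the bars that stands for gene ends grows on the right, where the distance exceeds 100 kb.

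H2AK119ub-free regions neighboured each other. For 1876 of them (50.6%) the nearest other autosomal H3K27me3 region also lacked H2AK119ub, against 19.01% for short regions with H2AK119ub and a share of 28.7% among all autosomal H3K27me3 regions. They stood farther apart, with a median gap to the next H3K27me3 region of 16.3 kb against 7.90 kb. Runs were formed from H2AK119ub-free regions less than 50 kb apart with no H2AK119ub between them. By this definition 2203 regions (59.4%) stood alone and 1505 formed 600 runs of at least 2, of which 68 had 4 or more. The chromosomes differed. The share of short H3K27me3 regions without H2AK119ub was lowest on chromosome 11 (22.9%, 221 of 963) and chromosome 4 (24.1%, 188 of 780) and highest on chromosome 14 (40.2%, 171 of 425).

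H2AK119ub-free regions were less often at genes than short regions with H2AK119ub. A protein-coding gene end lay in or within 1 kb of 668 of the 3708 regions (18.02%), a further 964 (26.0%) lay in a gene body and met no end, and 2076 (56.0%) lay outside. For regions with H2AK119ub the shares were 35.7%, 23.2% and 41.1%. The lower share at gene ends was present in each of 4 width bands. Under 3 kb the share at gene ends was 12.1% against 21.3%, from 3 to 6 kb it was 16.4% against 27.6%, from 6 to 12 kb it was 21.2% against 35.4%, and from 12 to 30 kb it was 23.0% against 47.6%. Protein-coding genes fill 40.3% of the autosomal span. On the 18 autosomes with promoter sequences, 385 of 3590 H2AK119ub-free regions (10.7%) covered the start site of a protein-coding gene, against 1857 of 8193 regions with H2AK119ub (22.7%). No test was made of these differences, since regions are not replicates of the mark.

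The place of the regions changed with the distance to H2AK119ub. Regions under 1 kb away were at a gene end in 7.87% of cases, and the share was 11.8% at 1 to 5 kb, 12.04% at 5 to 20 kb and 14.96% at 20 to 100 kb. It was 33.5% at 100 to 500 kb and 61.5% at 500 kb or more, which exceeds the 35.7% of regions with H2AK119ub. These bands rest on the distance that the rule used, and a gene end inside H2AK119ub cannot lie in one of these regions. H2AK119ub lay in or within 1 kb of an end of 56.4% of all protein-coding genes. The low shares near H2AK119ub may thus follow in part from the rule, and the trend is given as a description. The most isolated regions were not wider, with a median width of 4.82 kb at 500 kb or more and 5.54 kb at 1 to 5 kb.

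**Figure D2:**
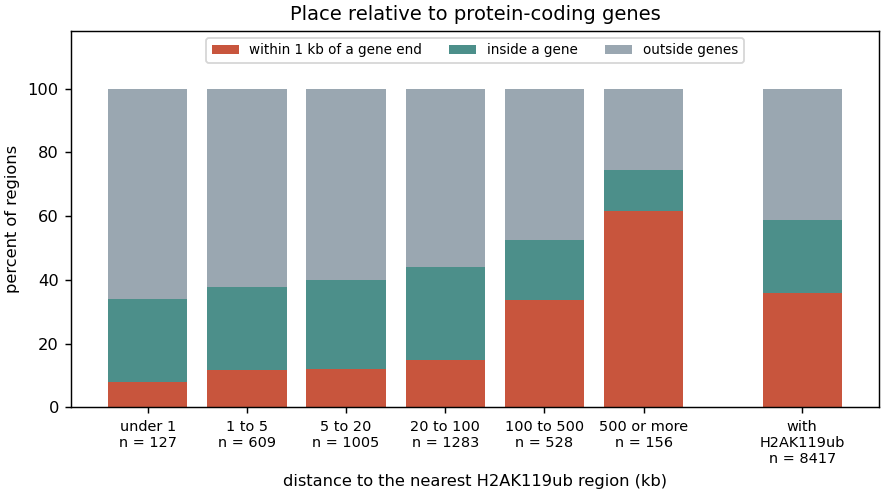
Percent of H2AK119ub-free H3K27me3 regions (vertical axis) at a protein-coding gene end, inside a gene or outside genes, in 6 bands of distance in kb to the nearest H2AK119ub region, with the short regions with H2AK119ub as the last bar and the number of regions under each bar. The share at gene ends goes from 7.87% in the nearest band to 61.5% in the farthest. The rule removes gene ends inside H2AK119ub, so the trend is a description.

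Among the 8 regions farthest from H2AK119ub, 5 met an end of a gene. The farthest of these was at Pcdh9, a 7.10 kb region 4.21 Mb from H2AK119ub. Next came Cdh8 (5.97 kb wide, 3.36 Mb away), Slitrk1 (5.32 kb, 2.76 Mb), Lrfn5, a synaptic adhesion gene (10.4 kb, 2.61 Mb), and Vstm2b (9.77 kb, 2.52 Mb). The region over Lrrc4c, a netrin-G ligand gene, lay inside the gene (3.04 kb, 3.17 Mb). The region farthest of all was 4.94 Mb from H2AK119ub and 548 kb from Dsel, the nearest gene, and the remaining one lay inside the predicted gene Gm32966. In all, 100 genes had their widest H2AK119ub-free end region 500 kb or more from H2AK119ub. Their median length was 274 kb, against 29.7 kb for the 584 other genes with such a region at an end. These genes met 96 regions, and of the 74 with a promoter sequence 63 covered the start site. Further members of this group, named after their values were seen, were Grm7 (a glutamate receptor gene, 1.76 Mb from H2AK119ub), Lingo2 (1.77 Mb), Nrg3, an ErbB ligand gene (1.41 Mb), Cntn4 (1.85 Mb), Vegfc, a lymphatic growth factor gene (2.21 Mb), and Col11a1 (1.68 Mb).

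Over the autosomes, 684 of 20665 protein-coding genes had an H2AK119ub-free region within 1 kb of an end, which is 3.31%. An end or the body was met in 1265 genes, or 6.12%. Of the 684 genes, 106 had H2AK119ub at an end as well, and 498 (72.8%) had none at an end or in the body. The share depended on gene length. It was 2.16% of genes under 20 kb, 4.31% of genes of 50 to 100 kb and 13.7% of genes of 200 kb or more, so the median gene length is given for the main lists below. The lists were chosen with earlier results of these data known, and their counts are descriptions without a test.

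Receptors for transmitters and neuronal adhesion genes filled the top of the 43 lists. Of 27 genes for serotonin, dopamine and adrenergic receptors, 9 (33.3%, median gene length 15.9 kb) had an H2AK119ub-free region at an end. Htr4 had the widest (16.5 kb), followed by Htr7 (15.3 kb), Adra1b (8.96 kb, only 0.341 kb from H2AK119ub) and Drd2, the D2 dopamine receptor gene (6.41 kb). Another region of Adra1b, away from its annotated ends, was wider (12.1 kb), lay 61.6 kb from H2AK119ub and covered a start site. Of 26 glutamate receptor genes, 6 (23.1%, median length 279 kb) had one at an end and 5 more had one inside. Grik1 (8.24 kb) and Grm7 (4.37 kb) were among those with one at an end. Of 19 GABA and glycine receptor genes, 4 (21.1%, median length 90.7 kb) had one at an end, among them Gabrg3 (6.43 kb), Gabra2 (4.10 kb) and Gabrb2 (3.16 kb). Among 21 acetylcholine receptor genes only Chrna9 (7.07 kb) and Chrm3 (6.10 kb) did. H3K27me3 together with H2AK119ub was more frequent in the same 4 lists. Of their 93 genes, 21 (22.6%) had an H2AK119ub-free region at an end and 53 had an H3K27me3 region with H2AK119ub there.

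Of 21 contactin, teneurin, neurexin and neuroligin genes, 6 (28.6%) had an H2AK119ub-free region at an end and only 2 had an H3K27me3 region with H2AK119ub there. These genes are very long, with a median of 718 kb, and the share for all genes of 200 kb or more was 13.7%. The widest regions were at Tenm2 (13.6 kb), Cntn3 (8.10 kb), Nlgn1 (6.58 kb) and Cntn1 (4.14 kb). In the other adhesion lists, as in the receptor lists, H3K27me3 with H2AK119ub at an end was the more frequent. Of 25 leucine-rich repeat synaptic genes, 4 (16.0%, median length 20.9 kb) had an H2AK119ub-free region at an end against 11 with H2AK119ub. The 4 were Lrfn5, Slitrk3 (9.43 kb), Lingo2 (6.97 kb) and Slitrk1. Of 23 cadherin genes (median length 148 kb), 3 did against 7, and the 3 were Cdh6 (12.7 kb), Cdh8 and Cdh20 (5.94 kb). Pcdh9 and Pcdh15 (8.89 kb) did so among 10 non-clustered protocadherin genes (median length 41.2 kb), against 7 with H2AK119ub. In the clustered protocadherins 3 of 57 genes (5.26%) had a region at an end, against 5 with H2AK119ub, and 23 more had one inside, but these nested genes share their downstream exons, and the same 6.70 kb region on chromosome 18 lies at Pcdhga9 and inside others. The potassium channel list also holds genes of proteins associated with the channels. An H2AK119ub-free region lay at an end of 9 of its 91 genes (9.89%, median length 36.2 kb), led by Kcnip1, a gene of such a protein (10.7 kb). It did so at 3 of 39 sodium and calcium channel genes (7.69%, median length 110 kb), which were Cacng8 (8.52 kb), Scn9a (5.01 kb) and Scn1a (4.47 kb). An H3K27me3 region with H2AK119ub lay at an end of 67 genes of the potassium channel list and 27 sodium and calcium channel genes. Cacna1c, a calcium channel gene of heart and brain, had 4 regions inside, the widest of 24.7 kb. Together the 10 lists of adhesion, channel and receptor genes held 21 of the 100 genes whose region was 500 kb or more from H2AK119ub. They held 6 of the 214 genes whose region was under 20 kb away, 21 of the 370 genes in between and 1.46% of all autosomal protein-coding genes. Among the 3952 genes with H3K27me3 and H2AK119ub at an end their share was 4.40%. These groups were not matched for gene length. The median length was 274 kb for the 100 genes and 29.7 kb for the other genes with an H2AK119ub-free region at an end. The clustered protocadherins and the adhesion G protein receptors (0 of 25 genes at an end) are not among the 10 lists.

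**Figure D3:**
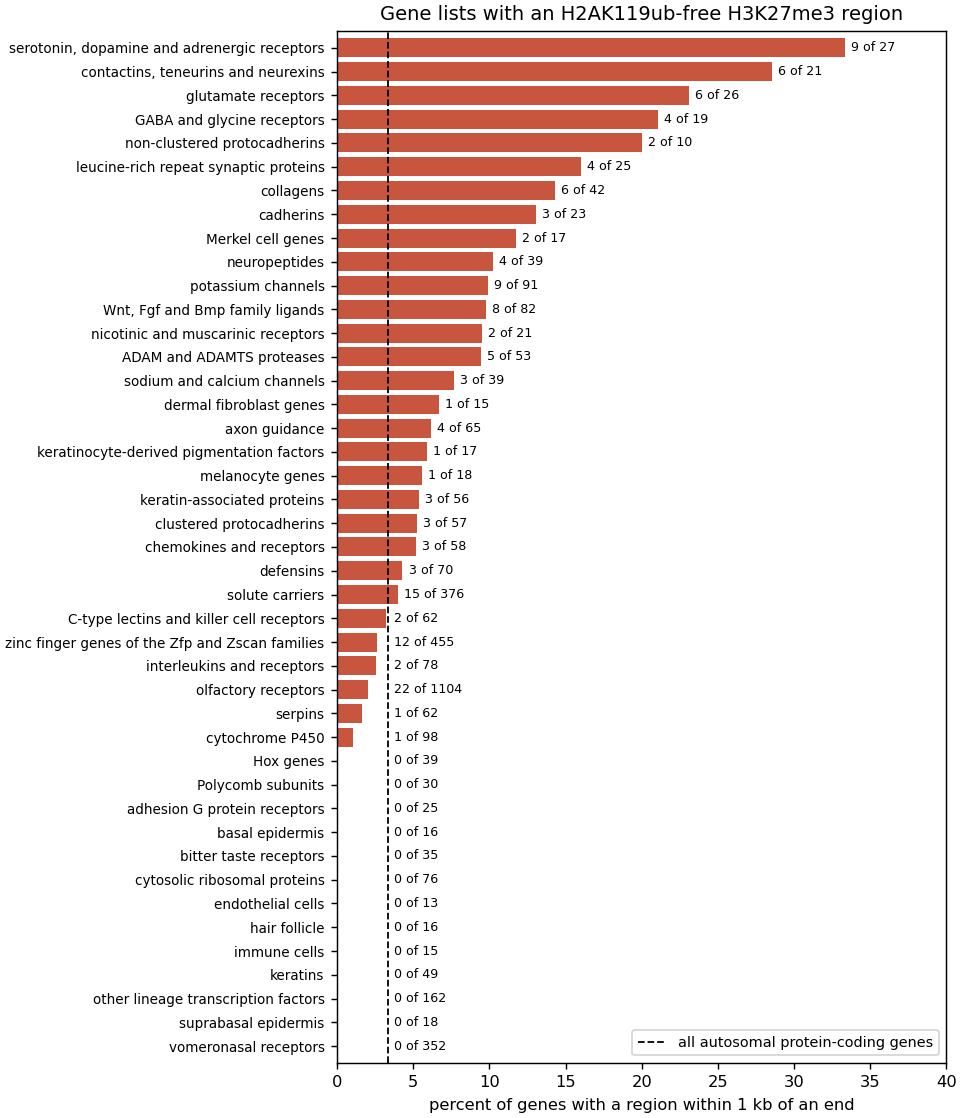
Percent of the genes of each of 43 lists with an H2AK119ub-free H3K27me3 region within 1 kb of an end (bars, with the counts), and the share of all autosomal protein-coding genes, 3.31% (dashed line). Receptor and adhesion lists stand at the top, and 13 lists, with the Hox genes and lineage transcription factors among them, have no such gene. The rule removes gene ends inside H2AK119ub, so the shares are a description.

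The lists of developmental transcription factors, the textbook targets of Polycomb complexes, held no gene with an H2AK119ub-free region at an end. None of 39 Hox genes and none of 162 genes of other lineage transcription factor families had one. Of them, 29 and 128 had an H3K27me3 region with H2AK119ub at an end. H2AK119ub itself lay at an end of all 39 Hox genes and 153 of the 162 others, against 56.4% of all genes. An end inside H2AK119ub cannot lie in an H2AK119ub-free region, so the missing genes may follow in part from the rule. Both lists have a median gene length under 20 kb, and the share of all genes under 20 kb was 2.16%. The absence was not tested. Inside gene bodies of these lists, Pax5, Sox5, Sox6, Foxp2 and Lhx4 held H2AK119ub-free regions. Of these genes, Pax5, a B cell factor, had 5 and Sox6 the widest (13.96 kb). The lists do not hold every transcription factor. Outside them, H2AK119ub-free regions covered start sites of Mef2c (14.1 kb), Tfap2d (13.0 kb), Esrrb (13.0 kb) and Meox2 (9.62 kb), among others. The list of signalling ligand families did hold genes with such a region at an end. Of 82 genes of the Wnt, Fgf and Bmp families and of related ligands and antagonists, 8 (9.76%, median length 16.4 kb) had such a region at an end. The widest were at Fgf6 (10.97 kb), Rspo4 (10.3 kb), Sfrp4 (9.39 kb) and Fgf7, a mesenchymal growth factor gene that acts on epithelia (8.22 kb), and Fgf10, Rspo2, Dkk2 and Fgf14 also had one. More of the 82 genes, 55, had an H3K27me3 region with H2AK119ub at an end. For H2AK119ub-free regions, collagen genes stood at 6 of 42 (14.3%, median length 110 kb), led by Col4a3 (10.8 kb), Col24a1 (8.69 kb), Col6a6 (6.16 kb) and Col1a2 (5.59 kb). Neuropeptide genes stood at 4 of 39 and ADAM protease genes at 5 of 53. For H3K27me3 regions with H2AK119ub at an end, the counts were 22 collagen, 25 neuropeptide and 13 ADAM protease genes.

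For genes of skin cells the lists are short, and a count of 0 or 1 in them lies near what the share of all genes, 3.31%, gives. None of 16 basal epidermal genes, 18 suprabasal genes, 16 hair follicle genes and 49 keratin genes had an H2AK119ub-free region at an end. In the same order, 14, 13, 16 and 48 of them had H2AK119ub at an end, and an end inside it cannot count. Among them Dst, a hemidesmosome gene (5.20 kb), and Lgr5, a follicle stem cell gene (3.27 kb), held an H2AK119ub-free region inside. These lists do not hold all genes of skin. Outside them, such regions covered the start sites of the late cornified envelope genes Lce3b (13.98 kb) and Lce3d (10.5 kb) and of Cd34 (9.68 kb). Among 18 melanocyte genes only Ednrb, the endothelin receptor of pigment cells, had one at an end. This region was 4.50 kb wide and 184 kb from H2AK119ub. Its ligand gene Edn3 was the only one of 17 genes for pigmentation factors, with a 2.76 kb region 80.5 kb from H2AK119ub. Both regions cover the start site. Of 15 dermal fibroblast genes 1 was met at an end (Col1a2), and of 17 Merkel cell genes 2 (11.8%, Tenm2 and Rab3c). H3K27me3 with H2AK119ub lay at an end of 8 of these fibroblast genes and 15 of these Merkel cell genes. The lists of immune and endothelial cell genes had none at an end. Of 30 Polycomb subunit genes only Jarid2, a PRC2 accessory subunit, held a region, of 0.757 kb and inside the gene.

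Of 1104 olfactory receptor genes 22 (1.99%) had an H2AK119ub-free region at an end, in 19 regions, and of 352 vomeronasal receptor genes none did. The widest olfactory receptor region measured 22.5 kb and met Olfr1411, Olfr1412 and Olfr1413 on chromosome 1. The share was 2.64% of 455 zinc finger genes, 3.99% of 376 solute carrier genes, 4.29% of 70 defensin genes and 1.02% of 98 cytochrome P450 genes. The share of all genes was 3.31%. With a window of 5 kb, 30 zinc finger genes, 28 solute carrier genes and 1103 of all genes were met. Keratin-associated protein genes, which encode hair proteins, were met in 3 of 56 cases (5.36%), at Krtap5-2, Krtap5-3 and Krtap5-5 on chromosome 7, in regions of 22.4, 11.1 and 11.6 kb.

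The widest of the regions at gene ends was the 28.1 kb region at Ccr6 on chromosome 17 from 8223458 to 8251600, 3.63 kb from H2AK119ub. Zg16, a lectin gene of mucus-secreting cells, had 27.1 kb, Them7 26.9 kb and Wfdc21 25.8 kb. Gm12253 (24.8 kb), Spint4 (24.2 kb), Calca, the gene of calcitonin and its related peptide (23.97 kb), Rxfp2, a relaxin family receptor gene (23.7 kb), 4933402N03Rik (22.7 kb), Olfr1412 (22.5 kb), Gm4553 (22.4 kb) and Svep1 (22.3 kb) followed. Their distances to H2AK119ub reached 78.9 kb at Them7, and 68.3 kb is the upper quartile of all H2AK119ub-free regions. The fibrinogen genes Fgg, Fga and Fgb, liver genes of blood clotting that were named after their values were seen, lay in a run of 6 regions on chromosome 3 from 82988920 to 83115076. The regions at their ends measured 4.66, 3.06 and 12.9 kb. The seminal vesicle genes Svs2 and Svs3b shared a 20.5 kb region in a run of 5 on chromosome 2, and Fgb and Svs2 were covered from end to end.

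**Figure D4:**
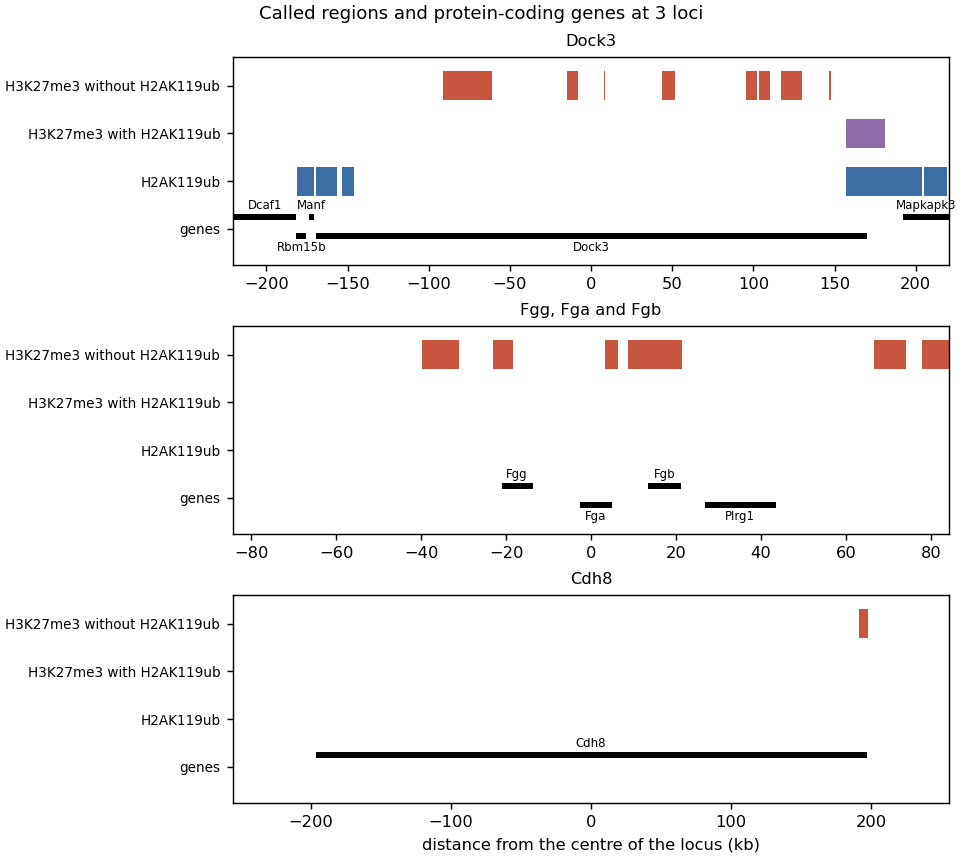
Called regions at 3 loci along the distance in kb from the centre of each locus, with H2AK119ub-free H3K27me3 regions in the top row, H3K27me3 regions with H2AK119ub and H2AK119ub regions below them, and protein-coding genes as black bars. Dock3 has 8 H2AK119ub-free regions between H2AK119ub at its ends, the fibrinogen genes lie in a run of 6, and Cdh8 has a single region of 5.97 kb at its start with no H2AK119ub in the window shown.

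CpG content of the promoters followed the distance from H2AK119ub. It is given as the observed to expected ratio, the number of CpG divided by the number expected from the C and G content, over 250 bases before and 50 after the start site. Of 16457 protein-coding genes with a promoter sequence, 384 (2.33%) had a start site in an H2AK119ub-free region, with 440 promoters. Their median ratio was 0.413 (quartiles 0.244 and 0.628). It was 0.595 for the 2226 promoters in short H3K27me3 regions with H2AK119ub and 0.586 for all 20085 promoters. A ratio of 0.6 or more was reached by 28.0%, 49.5% and 48.9% in the same order. Within the H2AK119ub-free regions the median ratio was 0.225 for 69 promoters in regions under 20 kb from H2AK119ub, 0.334 for 125 at 20 to 100 kb, 0.472 for 159 at 100 to 500 kb and 0.620 for 87 at 500 kb or more. The motif TATAAA, searched on the sense strand in the 50 bases before the start site, was found in 4.32% of the 440 promoters and 3.23% of all promoters.

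**Figure D5:**
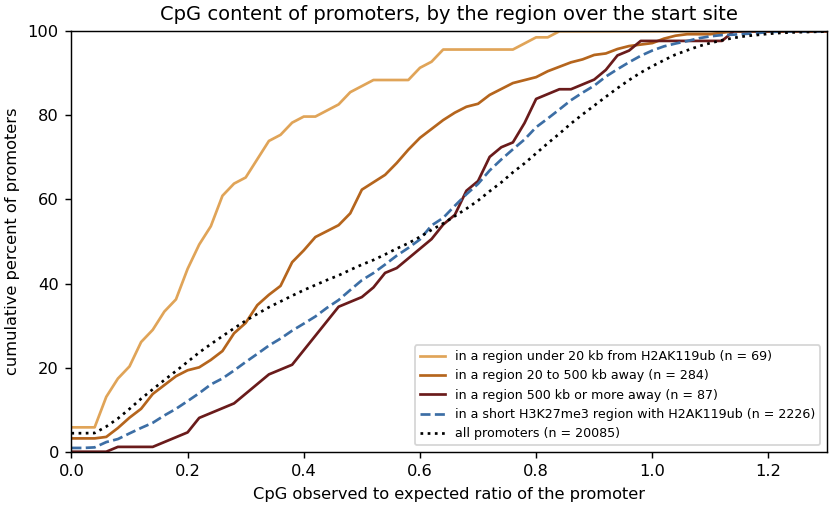
Cumulative percent of promoters (vertical axis) against their CpG observed to expected ratio (horizontal axis) for start sites in H2AK119ub-free regions in 3 bands of distance, in short H3K27me3 regions with H2AK119ub, and for all promoters. The curve for regions under 20 kb from H2AK119ub lies to the left (median 0.225) and the curve for 500 kb or more lies near that of regions with H2AK119ub.

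Unmarked promoters at the same distances went the other way. Start sites outside H2AK119ub were binned by their own distance to it. Among those in no H3K27me3 region, the median CpG ratio was 0.786 under 20 kb, 0.622 at 20 to 100 kb, 0.210 at 100 to 500 kb and 0.161 at 500 kb or more. Promoters in H2AK119ub-free regions, binned in the same way, had medians of 0.219, 0.315, 0.459 and 0.621. At 500 kb or more, 25.8% of the 182 CpG-rich promoters (ratio of 0.6 or more) lay in an H2AK119ub-free H3K27me3 region, against 3.05% of the 1379 others. Under 20 kb the order was opposite, with 0.126% of 3964 CpG-rich promoters and 2.99% of 1706 others. Start sites inside H2AK119ub are left out of this count by the rule, and promoters of neighbouring or duplicated genes are not independent.

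Genes with H2AK119ub-free regions inside were long. The 581 genes with H2AK119ub-free regions only away from their ends had a median length of 137 kb, against 17.5 kb for all genes. A region can lie away from both ends only in a gene long enough to hold it, so this difference follows in part from the definition. H2AK119ub was present at an end of 397 of them (68.3%), against 56.4% of all genes. By gene length, this share against that of all genes was 61.5% against 53.4% under 20 kb (13 genes with regions only inside), 52.7% against 57.7% at 20 to 50 kb (93 genes) and 71.2% against 59.95% at 50 to 100 kb (111 genes). It was 71.6% against 66.6% at 100 to 200 kb (155 genes) and 71.8% against 62.5% at 200 kb or more (209 genes). The order was thus opposite in the band of 20 to 50 kb. Dock3, a neuronal guanine nucleotide exchange factor gene, met the most regions. Its 8 regions on chromosome 9 covered 73.5 kb, or 21.6% of the gene. Acoxl (48.8 kb covered) and Slc35f3 (39.1 kb) met 7 each, and Npas3, Atp8a2, Rcan2, Erc2 and Myo3b met 6. Of 9 genes that met 5, Rgs6, Pax5, Myo16 and Chn1 had the greatest length covered, and the others were Hydin, Dlg2, Asic2, Fer1l6 and Ank2. Among all these genes Atp8a2, Myo3b, Myo16, Hydin and Fer1l6 had no H2AK119ub at an end. A single region was met by 919 genes.

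MicroRNA genes were met as well, and the sequences of those in the best known loci are printed to show which seeds they share. Of 919 autosomal hairpins listed by RefSeq, 19 (2.07%) lay in H2AK119ub-free regions, in 13 regions, and 58 lay in short regions with H2AK119ub. These classes of region differ in total length, with 24.7 Mb without and 83.0 Mb with H2AK119ub, and the counts were not tested. A single 3.11 kb region on chromosome 7 from 3217510 to 3220617, 16.4 kb from H2AK119ub, held 6 hairpins of the miR-290 cluster, which is known for its expression in embryonic stem cells. The mature sequences follow 5′ to 3′, with the seed (bases 2 to 8) in capitals.
miR-290a-5p: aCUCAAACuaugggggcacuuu
miR-292a-5p: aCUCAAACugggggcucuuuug
miR-293-5p: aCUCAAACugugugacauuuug
miR-290a-3p: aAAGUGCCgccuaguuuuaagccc
miR-291b-3p: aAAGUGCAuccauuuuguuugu
miR-128-3p: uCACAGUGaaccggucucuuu
miR-153-3p: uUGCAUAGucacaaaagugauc
miR-208b-3p: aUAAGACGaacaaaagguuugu
The first 3 share the seed CUCAAAC, and the seeds AAGUGCC and AAGUGCA of the next pair differ in the last base. The hairpin of miR-128-3p (Mir128-2) lies inside Arpp21 in a 6.21 kb region and that of miR-153-3p inside Ptprn2 in an 8.55 kb region, and both microRNAs are known from brain. The hairpin of miR-208b-3p lies inside Myh7, a slow muscle myosin gene, in a 4.98 kb region 2.10 kb from H2AK119ub. These microRNAs were chosen after their places had been seen.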

How the data were processed

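Chromatin immunoprecipitation with sequencing of sorted basal epidermal cells was represented by 1 deposited list of regions per mark (chromosome, start and end), with 2 libraries behind each mark. Each library started from 5 ng of DNA and was read as 75 nt single reads, per the labels' protocols. Bowtie2 2.3.3.1, SAMtools 1.9 and mm10 are named in the submitters' processing notes. The peak caller, its threshold, the pooling of libraries and the depth were not given in the sources used here.

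Starts in the deposited lists were read as counted from 0 and printed counted from 1. Gene spans, promoters and microRNAs came from RefSeq tables of GRCm38.p6, and promoter sequences covered 18 autosomes, without chromosome 18. The overlap, distance and counting steps (Python 3.11.15, pandas 2.3.3, numpy 2.4.6, scipy 1.17.1, matplotlib 3.10.9) were tested on simulated data. A gene end was met if it lay within 1 kb of a region. The named genes were the 12 with the widest region at an end, the 12 that met most regions, the 8 regions farthest from H2AK119ub, the 6 runs with most regions and up to 4 genes per list by width, and further genes were named after their values were seen. Some genes that these rules name are not reported here. The members and lists were chosen with earlier results of these data known.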

Additional observations from a re-analysis of the deposited data

How the results depend on the processing

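The share of short autosomal H3K27me3 regions without H2AK119ub was 30.6%, and it was 37.4% against H2AK119ub regions of at least 5 kb only, 32.1% with H3K27me3 regions under 3 kb apart merged, 24.5% when 5 kb or more from H2AK119ub were required, 28.7% with no limit on width and 34.3% under 15 kb. The median distance to H2AK119ub of 22.8 kb became 34.4, 29.2 and 35.3 kb under the first 3 of these settings. The share at a protein-coding gene end (18.02%) became 19.6% with merging, 19.7% at 5 kb or more from H2AK119ub, 19.3% for regions of at least 3 kb, 32.0% with all annotated genes, and 15.2% and 27.6% with windows of 0 bp and 5 kb. The share inside genes (26.0%) became 28.5% with all annotated genes and 23.2% with the 5 kb window. The share outside genes (56.0%) became 54.0% with merging, 54.3% at 5 kb or more from H2AK119ub, 39.6% with all annotated genes, and 57.6% and 49.1% with windows of 0 bp and 5 kb. The 5 kb window also gave 1103 genes with a region at an end in place of 684, and a median CpG ratio of 0.498 in place of 0.413. Wider windows and further gene classes meet more regions by construction. For the other changes the cause was not tested. With the 5 kb window 3 vomeronasal receptor genes were met, and 1 gene each of the lineage transcription factors, hair follicle, immune cell, bitter taste receptor, adhesion G protein receptor and ribosomal protein lists, so their counts of 0 hold for the 1 kb window only. Among single lists 17 values moved and 69 stayed within the limit of 1.5 times. No paired analysis was possible because each mark has 1 list without lists of single libraries, and for the same reason no library could be left out. Calls depend on read depth, which is unknown, so a region without called H2AK119ub may carry it below the threshold.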

Other observations

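The runs with the most H2AK119ub-free regions lay both in and far from genes. Dock3 held the run with the most regions, 8 over 239 kb. Runs of 7 regions lay at Gm39773 and Gm39774 on chromosome 2 (139 kb, of which 68.4% was covered), in Acoxl and at A230072I06Rik. Further runs of 7 lay on chromosome 9, 266 kb from Ppp2r3a, and on chromosome 13, 203 kb from Rnf144b, the nearest protein-coding genes. A run of 6 on chromosome 14 lay 71.0 kb from Otx2, a homeobox gene of forebrain and eye, and was named after its values were seen.

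Outside protein-coding genes, H2AK119ub-free regions met a long noncoding RNA gene in 456 of 2076 cases (22.0%), against 1069 of 3457 short regions with H2AK119ub (30.9%). Over 100 kb from any protein-coding gene lay 475 of them (22.9%), against 636 (18.4%).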
